A study of Rattus norvegicus with 12 samples.

Results

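Cell cycle and proliferation genes were examined in the bladder body of the rat as a set of 39 genes, chosen by name for their roles in entry into the cycle, DNA replication, mitosis and cytokinesis. The probes of 34 of the 39 genes were found through their RefSeq accession, and 31 had a probe that the scanner software flagged as well above background in all 4 animals of 1 or more groups and were tested, among 20426 genes and other features in all. RNA of 12 male Fischer 344 rats, an inbred strain, was hybridised with 1 animal on each 1-colour Agilent array. The labels put 4 animals in each of 3 groups: young rats of 6 months fed freely, old rats of 25 to 28 months fed freely, and old rats of 25 to 28 months that from the age of 6 weeks were given food on 3 days a week, which by the labels cut intake by about 40%. All 12 were housed under 1 light cycle, per the labels. No young restricted rats and no females were analysed here. The title of the series names inflammation and oxidation in the aging bladder, and their prevention by restriction, as its subject. It does not name cell division.

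A cell that enters the cycle first makes cyclins D and E and E2F factors, loads the MCM helicase onto DNA and makes the enzymes that supply nucleotides. It then makes cyclins A and B, which activate the kinase Cdk1, and the kinases, motors and checkpoint proteins that build the spindle and part the chromosomes. Most transcripts of the second set are made late in the cycle and are low in resting cells, whereas several of the first set are also present in cells that do not divide. The epithelium of the bladder, the urothelium, is known for very slow turnover at rest and fast renewal after injury. Its outer cells make uroplakins, and the wall below is mostly smooth muscle.

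The tissue label was met by the markers of the bladder. The uroplakins Upk1a, Upk1b, Upk2 and Upk3a and the smooth muscle genes Myh11, Actg2 and Des were well above background on all 12 arrays. The number of probes well above background was 21660 to 22294 of 30367 in young, 23373 to 24644 in old freely fed and 22567 to 23200 in old restricted rats. Levels are given as log2 of the background-subtracted signal minus log2 of the 75th percentile of the same array, so that 1 unit is a 2-fold difference, and levels of different genes cannot be compared, since each probe has its own brightness. The young rats lay in 1 row and the old freely fed rats in the other row of 1 slide, so that array row and age cannot be told apart. The old restricted group lay on another slide read in another scan, so that slide and restriction cannot be told apart. On the same scale, negative control spots averaged -9.18 to -8.94 in young, -10.5 to -9.97 in old freely fed and -9.81 to -9.54 in restricted rats. In whole tissue, fewer cells of a type and less RNA per cell cannot be told apart either. Nothing in the labels tells litters or cages apart, and p-values measure the spread between these animals. Old freely fed replicate 2 stood apart over all features on the first principal component (25.3% of the variance), at 51.9 against 7.28 to 13.7 for the others of its group.

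The promoters of these genes are known to carry a few short motifs, which is why some are shown here before the levels. E2F factors bind the letters TTTCCCGC and close variants of them at genes of the S phase. The cell cycle homology region, TTTGAA, often together with CCAAT boxes, is known from genes that peak in mitosis. RefSeq windows of 300 bases (build GRCr8, from 250 bases before to 50 after the transcription start) were at hand for 30 of the 39 genes and were searched on both strands. Of these 30 genes, 7 had no tested level. The E2F motif (TTTCCCGC, TTTCGCGC, TTTGCCGC or TTTGGCGC) was in 7 of the 30, against 2.14% of all 33469 windows. The homology region TTTGAA was in 15, against 18.3% of all windows, CCAAT in 22, against 37.5%, and TTTGAA together with CCAAT in 13, against 7.41%. The E2F motif and TTTGAA were found at genes of different roles, and CCAAT at both. All 5 windows of the MCM helicase subunits, those of Mcm2, Mcm3, Mcm5, Mcm6 and Mcm7, held the E2F motif. Mcm5 had no matched probe, and Mcm4 had a probe and no window. Among 10 windows of genes with roles in G1 and S phase 6 held the E2F motif, 1 held TTTGAA and 6 held CCAAT. Among 20 windows of genes with roles in G2 and mitosis, 14 held TTTGAA, 16 held CCAAT and 1, that of Cdk1, held the E2F motif. A match is a description of these letters, and binding was not measured.

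The windows below are examples, with 2 helicase subunits first and then 4 of the 13 genes whose SD was over 0.6 in both freely fed groups. Of these 4, Cdk1 also held an E2F motif and Ccnb1 held no TTTGAA. Windows were at hand for 8 of the 13 genes, and 5 of the 8 held TTTGAA, against 5 of 15 windows of the other tested genes. The examples were picked after the levels were seen. Capitals mark matches of the motifs on either strand, and positions count from the start site as 1.
Mcm3, chr9:30733697-30733996, minus strand: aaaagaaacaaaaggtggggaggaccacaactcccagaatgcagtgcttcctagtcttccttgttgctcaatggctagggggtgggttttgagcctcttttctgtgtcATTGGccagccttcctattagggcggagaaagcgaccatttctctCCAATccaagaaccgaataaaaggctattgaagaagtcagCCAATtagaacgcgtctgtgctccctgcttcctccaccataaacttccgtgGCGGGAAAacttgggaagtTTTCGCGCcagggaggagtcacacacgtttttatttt
Mcm6, chr13:42404303-42404602, minus strand: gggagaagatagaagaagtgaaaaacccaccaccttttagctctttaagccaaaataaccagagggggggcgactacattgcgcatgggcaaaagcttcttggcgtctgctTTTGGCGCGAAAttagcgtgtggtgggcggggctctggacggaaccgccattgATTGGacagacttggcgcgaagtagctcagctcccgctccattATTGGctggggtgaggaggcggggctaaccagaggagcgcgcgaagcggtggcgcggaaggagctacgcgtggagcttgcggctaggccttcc
Cdk1, chr20:19265043-19265342, plus strand: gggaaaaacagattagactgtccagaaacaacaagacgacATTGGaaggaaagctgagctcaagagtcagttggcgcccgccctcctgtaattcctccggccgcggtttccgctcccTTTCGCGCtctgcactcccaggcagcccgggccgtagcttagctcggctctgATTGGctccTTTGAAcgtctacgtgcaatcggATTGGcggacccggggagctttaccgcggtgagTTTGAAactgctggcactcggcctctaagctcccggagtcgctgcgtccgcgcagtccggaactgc
Ccnb2, chr8:79981609-79981908, minus strand: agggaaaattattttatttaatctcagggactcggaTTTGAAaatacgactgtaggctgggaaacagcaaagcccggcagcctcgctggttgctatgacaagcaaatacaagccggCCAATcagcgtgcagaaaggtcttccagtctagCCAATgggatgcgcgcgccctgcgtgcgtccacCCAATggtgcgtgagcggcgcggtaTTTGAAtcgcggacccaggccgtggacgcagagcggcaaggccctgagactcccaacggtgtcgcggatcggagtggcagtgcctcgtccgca
Nusap1, chr3:127057045-127057344, plus strand: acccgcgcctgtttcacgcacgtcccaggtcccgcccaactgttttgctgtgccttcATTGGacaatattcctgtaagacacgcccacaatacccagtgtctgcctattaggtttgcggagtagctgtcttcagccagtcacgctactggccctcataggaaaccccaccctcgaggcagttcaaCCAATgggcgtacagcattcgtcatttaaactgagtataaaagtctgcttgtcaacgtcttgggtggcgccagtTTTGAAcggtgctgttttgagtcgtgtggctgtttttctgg
Ccnb1, chr2:33655176-33655475, minus strand: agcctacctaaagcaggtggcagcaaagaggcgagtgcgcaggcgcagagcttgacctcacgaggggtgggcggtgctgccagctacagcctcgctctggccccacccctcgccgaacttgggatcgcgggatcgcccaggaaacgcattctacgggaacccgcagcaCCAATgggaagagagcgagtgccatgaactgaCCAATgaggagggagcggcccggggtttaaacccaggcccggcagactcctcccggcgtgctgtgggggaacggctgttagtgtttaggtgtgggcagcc
In the window of Mcm3 the E2F motif began at -6 and at 14, astride the start site, and in that of Mcm6 overlapping matches began at -139 and -135. In the window of Ccnb2, 3 CCAAT boxes began at -134, -101 and -68 and TTTGAA at -43 and at -214. In that of Nusap1, TTTGAA began at 10 and CCAAT at -193 and -65. The window of Ccnb1, whose levels went with those of the others, held CCAAT boxes at -82 and -50 and no TTTGAA.

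The mitotic genes differed widely between animals of the same group. In young rats, replicates 2 and 3 had high levels of the mitotic genes and replicates 1 and 4 low ones. In old freely fed rats, replicate 1 was highest, replicate 2 second, and replicates 3 and 4 were low. All 4 old restricted rats stood near the low animals of the other groups, close to each other, apart from replicate 4 for Ccnb2. The median SD of the 31 genes over the 4 animals of a group was 0.43 in young, 0.65 in old freely fed and 0.11 in old restricted rats, whereas over all features tested it was 0.12, 0.11 and 0.10. The signals of the 31 genes were dimmer, at a median level of -3.06 against -1.96 over all features, and features of like brightness were not compared. These patterns between animals were noticed in the data and are described by counts, without a test.

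**Figure D1:**
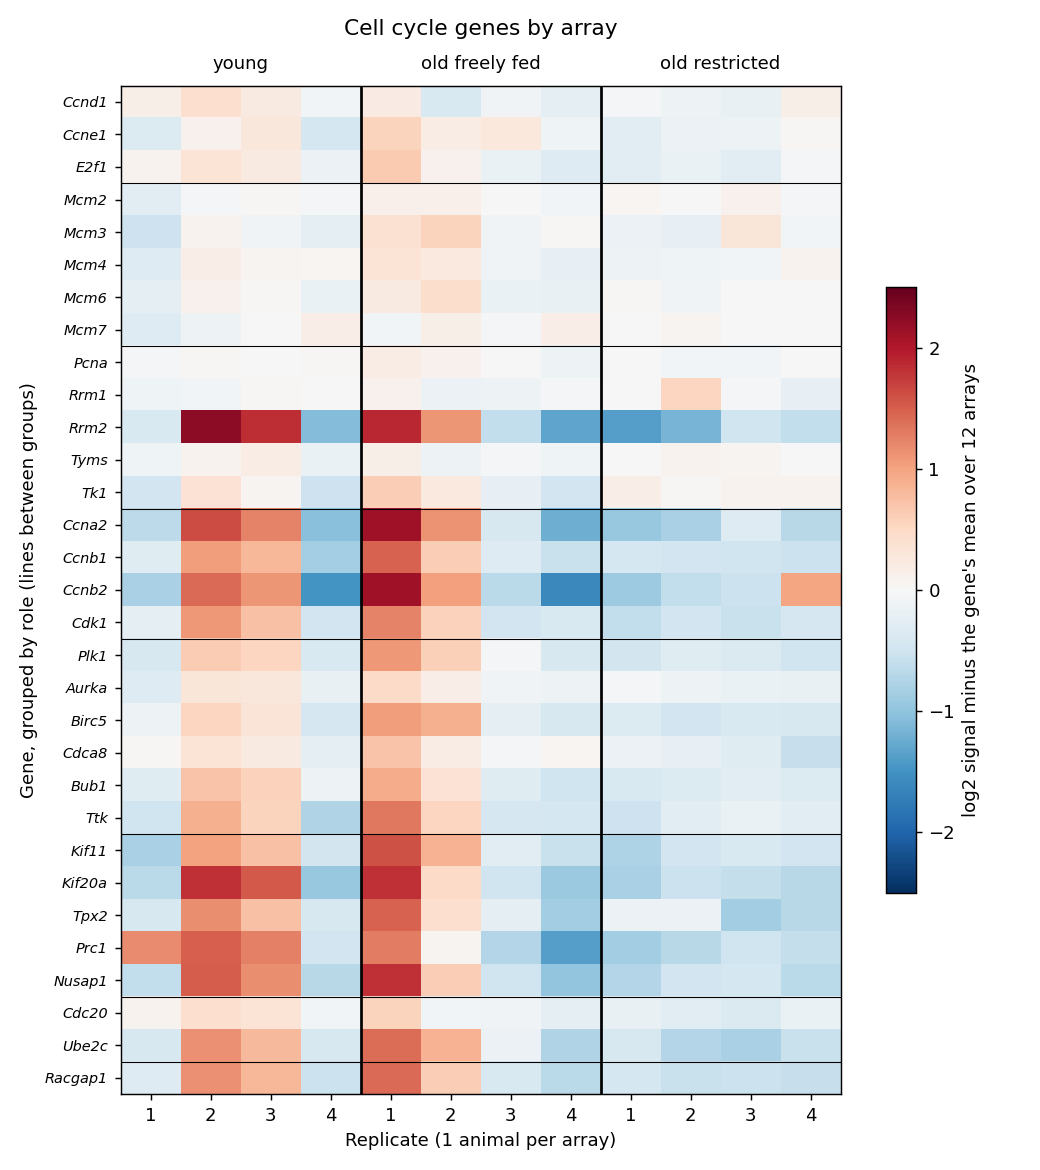
Level of each of the 31 tested genes (rows, grouped by role) on each of the 12 arrays (columns, numbered by replicate within a group), as log2 signal minus the mean of that gene over all 12 arrays, with red above and blue below that mean. Young replicates 2 and 3 and old freely fed replicates 1 and 2 are red over most rows from the cyclins downwards, and the old restricted arrays are pale blue there, apart from Ccnb2 in replicate 4.

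The genes that carry a cell from G1 into S phase were measured by 3 members. Ccnd1, cyclin D1, which links growth signals to the cycle, had levels of 0.80, 1.06, 0.87 and 0.58 in the young rats, 0.84, 0.27, 0.56 and 0.40 in the old freely fed rats and 0.60, 0.52, 0.46 and 0.78 in the old restricted rats. Old freely fed replicates 2, 3 and 4 lay below every young rat and replicate 1 lay inside their range. The difference between old freely fed and young rats was -0.31 (95% interval -0.59 to -0.03), with an adjusted p of 0.159 from limma. Ccne1, cyclin E1, the partner of Cdk2 at the start of S phase, had means of -3.12 ± 0.34 (SD, n = 4) in young, -2.81 ± 0.28 in old freely fed and -3.16 ± 0.13 in old restricted rats. E2f1, a transcription factor for S phase genes, had levels of -1.56, -1.30, -1.43 and -1.80 in the young rats, -0.99, -1.53, -1.82 and -1.97 in the old freely fed rats and -1.93, -1.82, -1.93 and -1.70 in the old restricted rats. Its highest value was that of old freely fed replicate 1, and the restricted rats lay within the low range of the others.

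The MCM helicase, loaded onto origins before replication, differed less between animals than the mitotic genes. It differed more than the median feature in both freely fed groups and less in restricted rats. The median SD of its 5 subunits measured was 0.21 in young, 0.26 in old freely fed and 0.07 in old restricted rats. In 4 of the 5, all but Mcm7, young replicates 2 and 3 and old freely fed replicates 1 and 2 were again the highest within their own groups. They were not always above the animals of other groups. For Mcm2, restricted replicates 1, 2 and 3 (-1.16, -1.22 and -1.10) lay above young replicate 2 (-1.24). Mcm7 had levels of 1.09, 1.29, 1.40 and 1.58 in the young rats, 1.33, 1.56, 1.35 and 1.58 in the old freely fed rats and 1.41, 1.47, 1.42 and 1.41 in the old restricted rats. The groups overlapped, and the restricted rats lay inside the range of each of the others. Mcm3 had levels of -0.72, -0.11, -0.29 and -0.44 in the young rats, 0.18, 0.34, -0.29 and -0.18 in the old freely fed rats and -0.35, -0.41, 0.09 and -0.28 in the old restricted rats. Old freely fed replicates 1 and 2 were above all young rats and the other 2 were within their range, and young replicates 2 and 3 were the higher of their group. Its difference between old freely fed and young rats was 0.40 (95% interval 0.04 to 0.76), the smallest adjusted p of the 31 in that comparison, at 0.158 (limma). The SDs of the 5 subunits, Mcm2, Mcm3, Mcm4, Mcm6 and Mcm7, were 0.12 to 0.26 in young, 0.10 to 0.30 in old freely fed and 0.03 to 0.22 in old restricted rats. All 5 had a positive difference between old freely fed and young rats, against 38.0% of all features, at a median of 0.13. Of the 5, 0 passed the test (limma).

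Pcna, the sliding clamp of DNA polymerase, had levels of 0.52, 0.60, 0.56 and 0.61 in the young rats, 0.75, 0.69, 0.59 and 0.44 in the old freely fed rats and 0.57, 0.51, 0.50 and 0.56 in the old restricted rats. This was the narrowest of the 31 genes in young rats, with an SD of 0.04 there, 0.13 in old freely fed and 0.04 in old restricted rats. Tyms, thymidylate synthase, which supplies a DNA precursor, had SDs of at most 0.17. Rrm1, the large subunit of ribonucleotide reductase, was the 1 gene whose SD was larger in restricted rats, at 0.32, than in young (0.07) and old freely fed rats (0.11), with restricted replicate 2 at -4.16 and the other 3 at -4.90 to -4.69. Rrm2, the small subunit of the same reductase, which is made in S phase, was among the most variable of all, with levels of -2.11, 0.50, 0.11 and -2.83 in the young rats, 0.15, -0.64, -2.36 and -3.06 in the old freely fed rats and -3.12, -2.90, -2.24 and -2.36 in the old restricted rats. Young replicates 2 and 3 and old freely fed replicates 1 and 2 lay above the other 8 animals. The highest and lowest young rats differed 10-fold, the old freely fed rats 9.28-fold and the old restricted rats 1.84-fold. Tk1, thymidine kinase, another S phase gene, had levels of -2.22, -1.39, -1.68 and -2.26 in the young rats, -1.13, -1.51, -1.95 and -2.22 in the old freely fed rats and -1.58, -1.73, -1.66 and -1.67 in the old restricted rats. All 4 restricted rats lay below young replicate 2 and old freely fed replicates 1 and 2 and above the low animals of both groups, and 3 of them lay above young replicate 3.

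**Figure D2:**
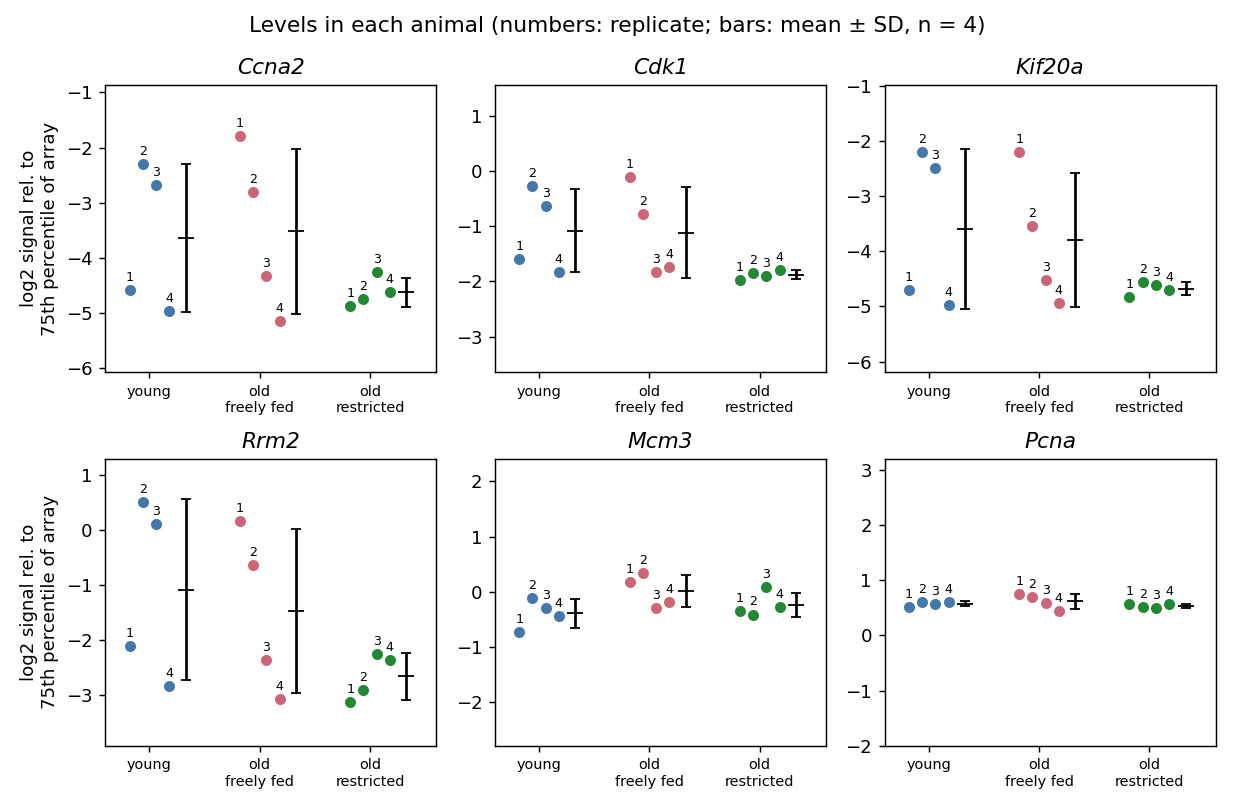
Level of 6 genes in each animal (log2 signal relative to the 75th percentile of the array), with replicate numbers beside the points and the mean ± SD (n = 4) beside each group. The vertical span is the same in every panel. Ccna2, Cdk1, Kif20a and Rrm2 split the animals of both freely fed groups into high and low ones. Mcm3 has the same animals highest within their own groups over a smaller span, with restricted replicate 3 above all young rats. Pcna has no such split.

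The cyclins of S and M phase and their kinase showed the wide spread in every member. Ccna2, cyclin A2, had levels of -4.58, -2.30, -2.68 and -4.97 in the young rats, -1.80, -2.81, -4.32 and -5.13 in the old freely fed rats and -4.87, -4.73, -4.25 and -4.62 in the old restricted rats. Old freely fed replicate 1 was 10.1-fold above replicate 4, young replicate 2 was 6.36-fold above replicate 4, and the restricted rats spanned 1.53-fold. Cdk1, the kinase that drives entry into mitosis, had levels of -1.60, -0.27, -0.63 and -1.83 in the young rats, -0.11, -0.79, -1.84 and -1.74 in the old freely fed rats and -1.97, -1.85, -1.91 and -1.79 in the old restricted rats. The same 4 animals were high, and the restricted rats stood at the level of the low ones or below it. Ccnb1, cyclin B1, the partner of Cdk1 in mitosis, had levels of -5.62, -4.27, -4.50 and -6.18 in the young rats, -3.85, -4.70, -5.64 and -5.87 in the old freely fed rats and -5.76, -5.80, -5.83 and -5.86 in the old restricted rats. The 4 restricted values lay within 0.11 of each other. Ccnb2, cyclin B2, had levels of -6.68, -4.47, -4.78 and -7.37 in the young rats, -3.76, -4.85, -6.55 and -7.49 in the old freely fed rats and -6.79, -6.49, -6.42 and -4.90 in the old restricted rats. Its restricted replicate 4 stood over 2-fold above the other 3 of its group. Ccnb2 was the 1 tested gene not well above background on every array, at 3 of 4 arrays in each freely fed group and 4 of 4 in restricted rats. It was thus kept through the restricted group alone, and its SDs in the freely fed groups include values below background.

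Among the mitotic kinases, the passenger complex and the spindle checkpoint, the spread had the same order and was smaller. Plk1, Polo-like kinase 1, which acts on the centrosomes and at mitotic exit, had levels of -2.86, -1.81, -1.93 and -2.84 in the young rats, -1.37, -1.87, -2.51 and -2.85 in the old freely fed rats and -2.92, -2.75, -2.82 and -2.95 in the old restricted rats. Birc5, survivin, a subunit of the passenger complex that corrects spindle attachments, had levels of -3.85, -3.18, -3.41 and -4.14 in the young rats, -2.68, -2.83, -3.94 and -4.12 in the old freely fed rats and -4.07, -4.21, -4.11 and -4.12 in the old restricted rats. In both, old freely fed replicate 1 was highest and the restricted rats stood together near the level of young replicate 4. Cdca8, borealin, another subunit of that complex, had levels of -5.08, -4.79, -4.90 and -5.37 in the young rats, -4.41, -4.94, -5.16 and -5.08 in the old freely fed rats and -5.26, -5.32, -5.43 and -5.69 in the old restricted rats. Every restricted rat was below every old freely fed rat, and young replicate 4 lay inside the restricted range. Aurka, the kinase that matures centrosomes, had levels of -2.69, -2.06, -2.09 and -2.55 in the young rats, -1.89, -2.20, -2.45 and -2.48 in the old freely fed rats and -2.40, -2.49, -2.53 and -2.55 in the old restricted rats. Its SDs were smaller than those of Plk1, at 0.32, 0.27 and 0.06 in young, old freely fed and restricted rats. The checkpoint kinases Bub1 and Ttk had SDs of 0.50 and 0.80 in young, 0.65 and 0.84 in old freely fed, and 0.05 and 0.15 in restricted rats.

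The motors and proteins of the spindle were again widely spread. Kif20a, a kinesin of the central spindle, had levels of -4.71, -2.20, -2.49 and -4.98 in the young rats, -2.20, -3.54, -4.51 and -4.95 in the old freely fed rats and -4.83, -4.56, -4.61 and -4.71 in the old restricted rats. The young rats spanned 6.84-fold, the old freely fed rats 6.70-fold and the restricted rats 1.21-fold. Nusap1, a protein that bundles spindle microtubules, had levels of -4.58, -2.44, -2.81 and -4.66 in the young rats, -2.14, -3.35, -4.46 and -4.96 in the old freely fed rats and -4.69, -4.45, -4.41 and -4.63 in the old restricted rats. Its high and low animals were those of Kif20a. Kif11, the motor that parts the spindle poles, and Tpx2, which seeds microtubules and activates Aurka, had SDs of 0.89 and 0.80 in young, 1.0 in both in old freely fed, and 0.17 and 0.37 in restricted rats.

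Prc1, which bundles the microtubules of the central spindle, had the same order of animals with the gap in another place. Its levels were -2.45, -2.15, -2.38 and -4.12 in the young rats, -2.35, -3.57, -4.37 and -5.01 in the old freely fed rats and -4.51, -4.33, -4.12 and -4.23 in the old restricted rats. Young replicate 1, though below replicates 2 and 3, lay close to them, and young replicate 4 stood alone at the low end. A second probe of Prc1 gave -3.86, -3.66, -3.96 and -5.98 in the young rats, the same split. Cdc20, which turns on the anaphase promoting complex, had levels of -2.29, -1.96, -2.02 and -2.43 in the young rats, -1.81, -2.43, -2.45 and -2.59 in the old freely fed rats and -2.55, -2.63, -2.73 and -2.54 in the old restricted rats. Every restricted rat was below every young rat for both genes, for Prc1 by a margin smaller than the printed digits, while old freely fed rats overlapped with each group. Ube2c, the ubiquitin conjugating enzyme of that complex, had SDs of 0.81, 0.97 and 0.19 in the 3 groups. Racgap1, which with a kinesin sets the plane of cytokinesis, had levels of -5.59, -4.12, -4.43 and -5.81 in the young rats, -3.86, -4.64, -5.65 and -5.95 in the old freely fed rats and -5.70, -5.82, -5.80 and -5.85 in the old restricted rats.

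Counted over the 31 genes, young replicates 1 and 4 were the lowest 2 of their group in 28, against 12.3% of all features. Old freely fed replicates 1 and 2 were the highest 2 of theirs in 26, against 19.7% of all features. Both orders held together in 25 of the 31 genes and in 2.77% of all features. The 6 without them were Ccnd1, Ccne1, Mcm7, Pcna, Rrm1 and Tyms, all with roles in G1 or S phase, and all 18 genes with roles in G2 and mitosis had both. The SD in each freely fed group was over 2 times that in restricted rats in 23 of 31 genes, against 10.3% of all features, and exceeded 0.6 in both freely fed groups in 13, against 0.925%. With normexp background, another way to subtract it, the last count was 7 and not 13. Of those 13, the genes other than Rrm2 had roles in G2 and mitosis, and the SDs of Ccnb2 include values below background. All 4 restricted rats lay below the 2 highest of each freely fed group in 22 genes, against 15.3% of all features. These genes are made together in dividing cells, so the counts are not those of independent genes.

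**Figure D3:**
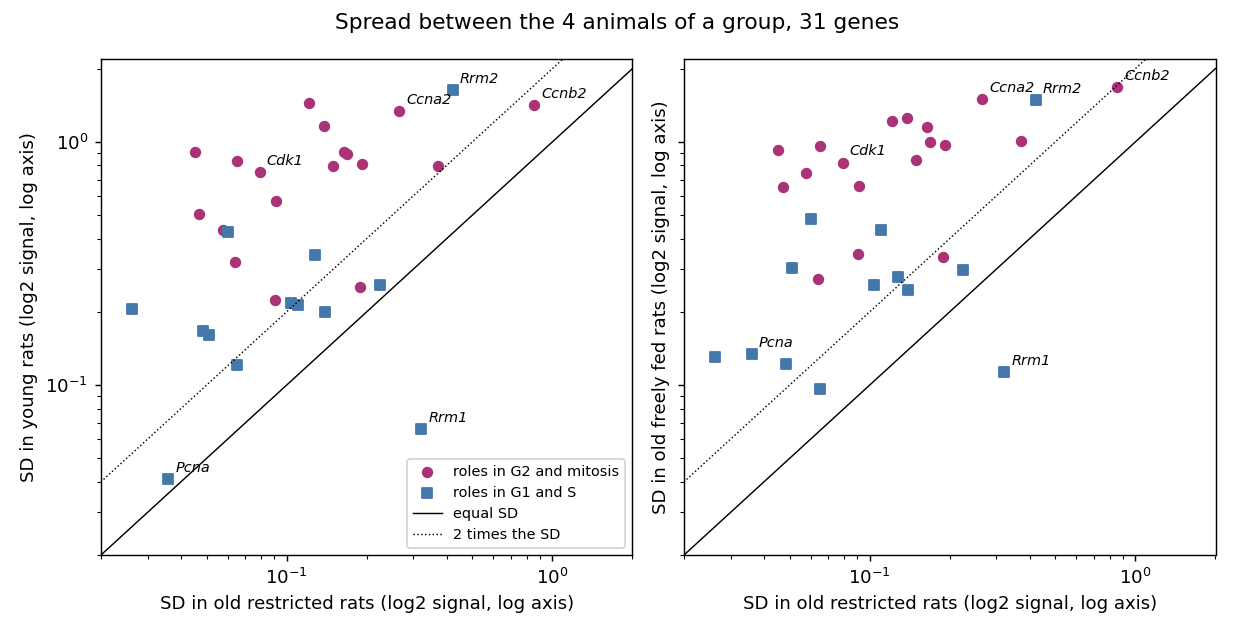
SD over the 4 animals of a group for each of the 31 genes, in young rats (left) and old freely fed rats (right) against old restricted rats, on log axes in log2 signal. The solid line marks equal SDs and the dotted line an SD 2 times that of the restricted rats, and 30 genes lie above the solid line in both panels, the exception being Rrm1.

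Of the 3 matched genes that were not kept, Aurkb and Cenpf were above background in the 4 high animals alone, and Kif2c mostly in them. Aurkb, the kinase of the passenger complex, was well above background in young replicates 2 and 3 and in old freely fed replicates 1 and 2, and on 0 of 4 arrays of restricted rats. Its levels in those 4 animals were -5.74, -6.65, -5.93 and -6.78. Both probes of Cenpf, a kinetochore protein of late G2 and mitosis, were well above background in the same 4 animals and on 0 of 4 arrays of restricted rats. The first probe had levels of -5.09 and -5.30 in those young rats and -4.63 and -6.24 in those old freely fed rats. The first probe of Kif2c, a kinesin that takes microtubules apart at the kinetochore, was well above background on 2 of 4 arrays in each freely fed group and on 1 of 4 in restricted rats. The animals above were the same 4 and restricted replicate 3. Its second probe was above background in young replicate 2 and old freely fed replicates 1 and 2 alone. All 3 genes thus reached at most 2 of 4 arrays in any group, where the rule asked for 4. Values of these probes below background carry no order, and the 3 genes were left out of all tests and counts of levels above. The promoter counts include the windows of Cenpf and Kif2c. Mki67, Top2a, Bub1b, Mcm5 and Ect2 were not matched to a probe by the naming used here, and their levels were not analysed. Their windows are part of the promoter counts. Probes of these genes may be among the features without a gene symbol, which enter the shares of all features.

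**Figure D4:**
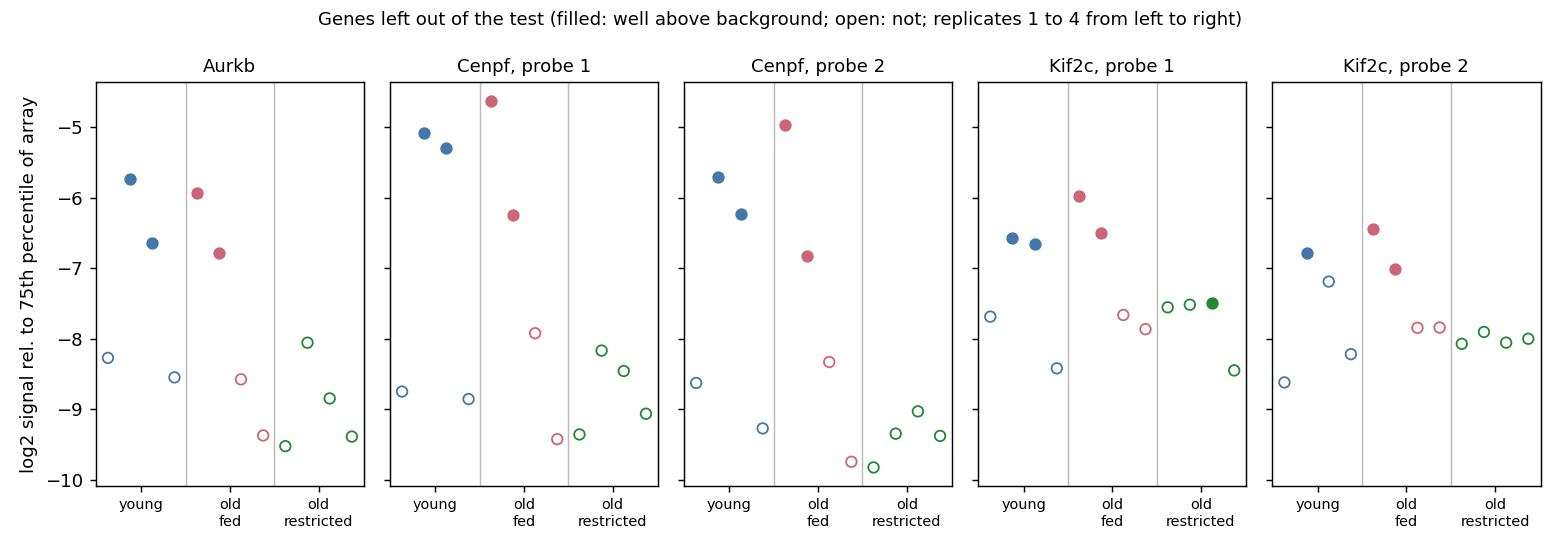
Level of the probes of Aurkb, Cenpf and Kif2c on each array (log2 signal relative to the 75th percentile of the array), with replicates 1 to 4 from left to right within a group. Filled points are well above background and open points are not, and for Aurkb and Cenpf the filled points are those of young replicates 2 and 3 and old freely fed replicates 1 and 2.

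Age was compared first, as old freely fed against young rats on the same slide but in another row of arrays. In this comparison 0 of the 31 genes were higher and 0 lower at an adjusted p under 0.05 (limma, Benjamini-Hochberg over all features), against 1.63% higher and 2.1% lower of all 20426 features. At an unadjusted p under 0.05, Mcm3 was higher and Ccnd1 lower, against 8.32% and 16.3% of all features. The groups overlapped in every one of the 31 genes, whereas they were apart in 5.69% of all features on the higher side and 9.37% on the lower. The median difference of the 31 genes was 0.08, against -0.05 over all features. Above 0 were 18 genes and below it 13, whereas 38.0% of all features were above 0. Prc1 had the third smallest adjusted p, with a difference of -1.05 (95% interval -2.21 to 0.10) and an adjusted p of 0.242 (limma). The spread set wide limits on what could be seen: for Ccna2 the difference was 0.12 (95% interval -1.47 to 1.71), and for Pcna it was 0.05 (95% interval -0.08 to 0.17). A difference of 2-fold either way lay within the interval of Ccna2 and outside that of Pcna. The sign of the median turned with the animals included: it was -0.15 without old freely fed replicate 1, -0.09 without young replicate 4 and -0.04 without young replicate 1. It was 0.22 without young replicate 2, 0.16 without young replicate 3, 0.15 and 0.19 without old freely fed replicates 3 and 4, and 0.01 without old freely fed replicate 2.

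Restriction was compared at old age, against freely fed rats on the other slide. Here too 0 of 31 genes were higher and 0 lower at an adjusted p under 0.05 (limma), against 1.62% and 2.02% of all features. At an unadjusted p under 0.05, 0 were higher and 3 lower, Cdca8, Birc5 and Plk1, against 11.5% and 9.16% of all features. Of the 31 differences 27 were below 0 and 4 above, whereas 57.4% of all features were above 0. The median was -0.47, against 0.02 over all features. The 18 genes with roles in G2 and mitosis were all below 0, at a median of -0.72, whereas of the 13 with roles in G1 and S phase 9 were below 0, at a median of -0.08. Cdca8 differed by -0.53 (95% interval -0.91 to -0.14), with an adjusted p of 0.122 (limma), and was the 1 gene whose groups did not overlap, on the lower side, against 6.05% of all features on that side and 8.64% on the higher, where 0 of the 31 stood. Birc5 differed by -0.73 (95% interval -1.42 to -0.05) and Plk1 by -0.71 (95% interval -1.40 to -0.01), with adjusted p of 0.212 and 0.235 (limma). The differences of Rrm2, -1.18 (95% interval -2.94 to 0.58), and Ccna2, -1.11 (95% interval -2.69 to 0.48), were larger and their intervals included 0. Old freely fed replicate 1 moved the median most: without it the median was -0.19, and without each of the other 11 animals in turn it lay between -0.66 and -0.37. Without old freely fed replicate 2, which stood apart over all features, it was -0.37.

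**Figure D5:**
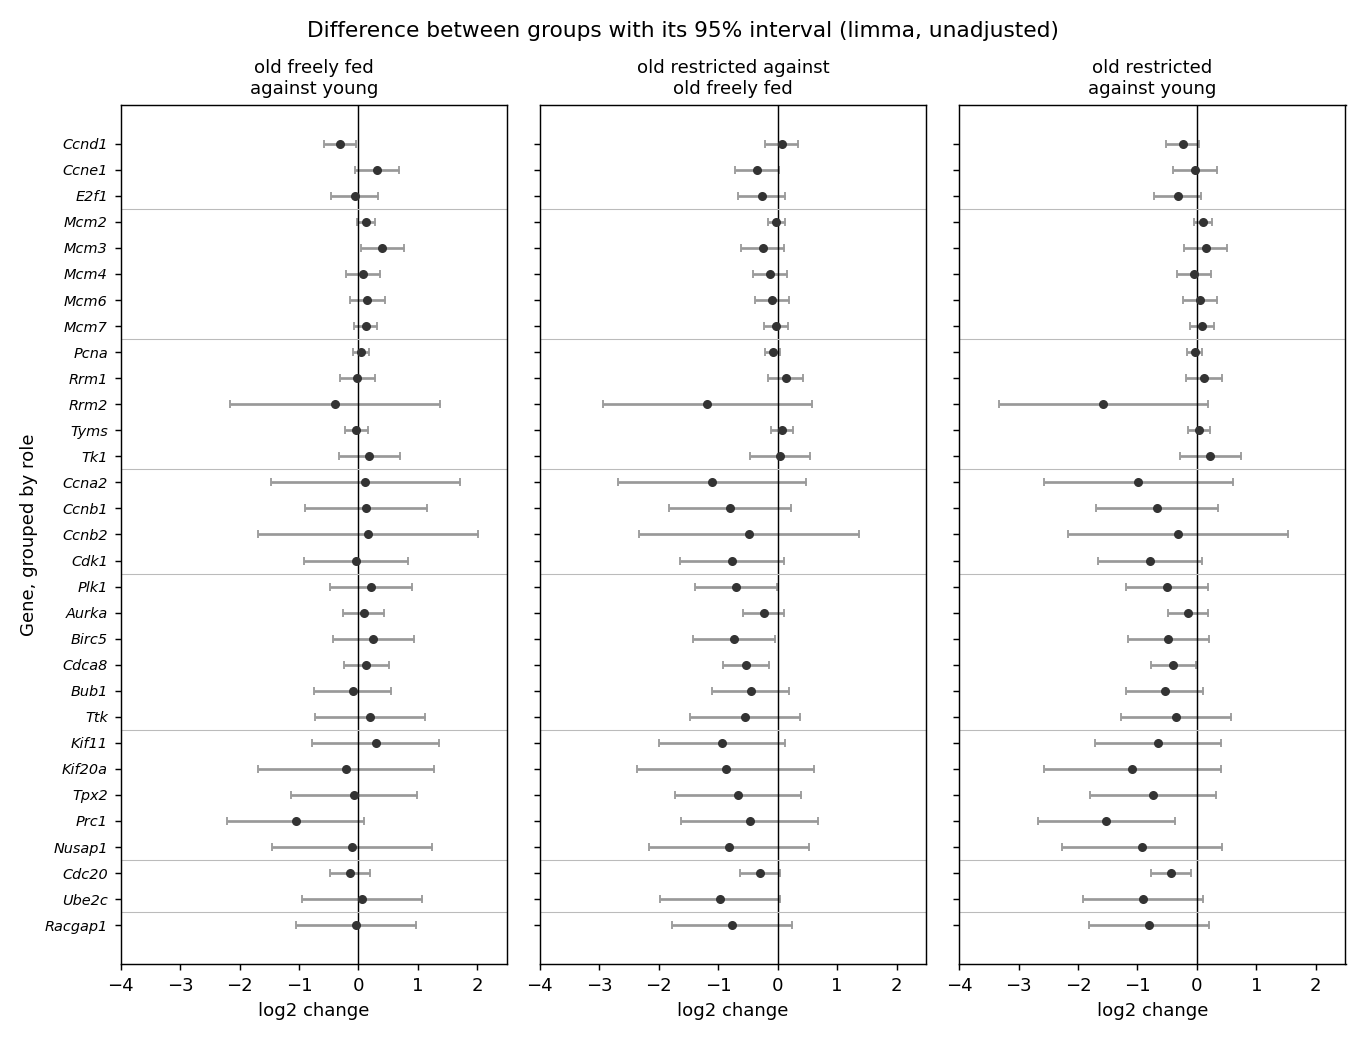
Difference between groups in log2 signal for each of the 31 genes, grouped by role, with its 95% interval from limma (not adjusted for the number of genes). The old restricted rats lie below the old freely fed rats in all 18 genes from Ccna2 to Racgap1, while the differences between old freely fed and young rats fall on both sides of 0.

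Old restricted rats were set against young rats last, across both age and diet and across slides. At an adjusted p under 0.05, 0 of 31 genes were higher and 0 lower (limma), against 3.19% and 5.99% of all features, and at an unadjusted p under 0.05, 0 were higher and 3, Prc1, Cdc20 and Cdca8, lower, against 10.1% and 16.0% of all features. Prc1 differed by -1.53 (95% interval -2.68 to -0.37) and Cdc20 by -0.44 (95% interval -0.78 to -0.10), with adjusted p of 0.0923 and 0.098 (limma). Their restricted rats were all below all young rats, 2 of 31 genes, against 10.8% of all features on the lower side, while 0 of 31 stood apart on the higher side, against 7.16% of all features. Both genes passed the threshold when only these 2 groups entered the fit, with adjusted p of 0.0405 and 0.0399, and when old freely fed replicate 1 was left out, with 0.0451 and 0.0265 (limma). That animal is in neither group compared. Leaving it out kept both differences, -1.53 and -0.44, and changed only the spread shared by the groups. Prc1 alone passed it without young replicate 4, at a difference of -1.97 and an adjusted p of 0.0349 (limma). Cdca8 differed by -0.39 (95% interval -0.78 to -0.01), with an adjusted p of 0.182 (limma). The median over the 31 genes was -0.39, against -0.01 over all features. Below 0 were 24 genes and above it 7, whereas 47.2% of all features were above 0. Without young replicate 4 the median was -0.62. This comparison and the preceding 2 share animals, so their differences are not independent of each other.

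Other genes of the same pathways, 91 in 4 lists, were examined alongside, and 69 were tested. Adjusted p under 0.05 (limma) was reached by 0 of 69 with age, against 1.63% higher and 2.1% lower of all features, and 8 were higher and 7 lower before adjustment, against 8.32% and 16.3%. With restriction it was reached by 0 of 69, against 1.62% and 2.02%, and 2 were higher and 7 lower before adjustment, against 11.5% and 9.16%. In restricted against young rats 0 were higher and 3 lower, against 3.19% and 5.99% of all features, a smaller share than in the background. Cdkn2c, p18, an inhibitor of Cdk4 and Cdk6, had levels of -3.23, -3.07, -3.04 and -2.77 in young, -3.19, -3.13, -3.29 and -3.16 in old freely fed and -3.45, -3.53, -3.69 and -3.50 in restricted rats. The restricted rats were below all others, and the difference from young rats was -0.51, with an adjusted p of 0.00897 (limma), and from old freely fed rats -0.35, with an adjusted p of 0.0593. Cdkn1a, p21, the inhibitor of cyclin-dependent kinases that p53 turns on, was lower in restricted than in young rats, with a difference of -0.34 (adjusted p = 0.0243, limma). Its adjusted p was above 0.05 in 7 of 23 other settings, up to 0.168. Cks1b, a small subunit of cyclin-dependent kinases, was lower too, with a difference of -0.33 (adjusted p = 0.0468, limma), and its adjusted p was above 0.05 in 15 of 23 other settings, up to 0.109. Myc, a transcription factor of growth, had the smallest adjusted p with age, 0.0564, with a difference of 0.50, and old freely fed rats all above young rats. Cyclin D2, Ccnd2, had the second, 0.0773, with a difference of -0.45.

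Most of the other mitotic genes had the order of the members. Of 35 listed, 21 were tested, and 17 had both orders of animals, against 2.77% of all features. All 21 had a difference below 0 in restricted against old freely fed rats, at a median of -0.55, whereas 57.4% of all features were above 0. Cdca3, a protein that helps trigger entry into mitosis, had levels of -4.91, -1.84, -2.33 and -5.22 in young, -1.57, -2.92, -4.63 and -5.77 in old freely fed and -5.30, -4.69, -4.43 and -4.70 in restricted rats. Young replicates 2 and 3 and old freely fed replicates 1 and 2 were the high animals once more. Of 19 other replication genes 8 had both orders, and of 15 inhibitors and pocket proteins 1 had, against the same 2.77%. Among 14 other regulators of G1 and S phase 2 had them, with Mybl2, a factor of the late cell cycle, at SDs of 1.12, 1.53 and 0.23 in the 3 groups. Mybl2 was well above background on 2 of 4 young, 3 of 4 old freely fed and 4 of 4 restricted arrays. Its SDs in the freely fed groups thus include values below background.

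Markers of cell types were set beside the members. The value for a list is the median, over its genes, of the level minus the gene's mean over 12 arrays. For the 31 members it was -0.32, 0.54, 0.35 and -0.41 in young, 0.92, 0.42, -0.17 and -0.40 in old freely fed and -0.29, -0.26, -0.31 and -0.28 in restricted rats. For 8 of 9 T cell markers it was -0.66 to -0.12 in young, 0.31 to 0.53 in old freely fed and -0.29 to 0.11 in restricted rats, so that all old freely fed rats were above all others, with no split within the group like that of the members. The log2 of their summed signal was 0.07 to 0.44, 0.81 to 0.99 and 0.41 to 0.69. For 7 of 7 leukocyte and macrophage markers it was -0.35 to -0.13, -0.07 to 0.80 and -0.20 to 0.10, with old freely fed replicate 2 highest. For 4 of 6 basal urothelial markers it was -0.68 to 0.11, -0.07 to 0.23 and -0.15 to 0.28, and for 5 of 6 superficial ones it was 0.00 to 0.12, -0.27 to -0.02 and 0.02 to 0.09. Among the basal markers young replicate 1 was highest of its group and replicate 4 lowest. For 6 of 6 fibroblast markers it was -0.04 to 0.30, -0.33 to 0.11 and 0.00 to 0.02, for 7 of 7 smooth muscle markers 0.15 to 0.47, -0.24 to 0.03 and -0.22 to 0.03, and for 5 of 6 endothelial markers -0.08 to 0.16, -0.02 to 0.14 and -0.17 to 0.05. For 3 of 7 B and plasma cell markers it was -1.07 to -0.35, 0.18 to 1.28 and -0.72 to 0.85. For 2 of 7 markers of the neighbouring prostate and seminal vesicle it was 1.32 to 2.81, -1.46 to 0.69 and -1.45 to -0.45, above 0 in all young rats. The 2 genes were unlike: their differences between old freely fed and young rats were -5.61 and -0.08, so the value rests mostly on 1 of them. The part of these cells in the levels of the members was not tested.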

How the data were processed

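Total RNA of the bladder body was hybridised to 1-colour arrays labelled with Cy3, 1 animal per array. Spot intensity values were deposited as Agilent Feature Extraction 10.7 wrote them, with background subtracted within each array, per the file headers, and the flags for detection and outliers were used as the authors deposited them. The value table of the series equalled these processed signals in 100% of spots (relative tolerance 1e-06) and was not used further.

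Levels were log2 of the processed signal minus log2 of the 75th percentile of the 58717 non-control spots of the array, which was 3993 to 4892 in the 12 arrays. Spots of a probe were averaged without outlier flags, and 0 non-control spots were saturated. Probes were named by matching their accession to RefSeq (17998 of 30367 probes), kept where the detection flag was set in all 4 animals of 1 or more groups (23090), and the brightest stood for a gene, leaving 20426 features. A linear model over all 12 arrays was fitted with limma 3.58 in R 4.3 (two-sided, eBayes with a brightness trend, Benjamini-Hochberg adjustment over all features at 0.05). It was also run on simulated data, where genes varied independently and each had the same spread in all groups. That run does not bear on the members, which varied together and whose spread differed between groups. The number of arrays limits the precision. The 3 groups shared 1 estimate of the spread of a gene, also where their SDs differed, and intervals and p-values rest on it. Replicate numbers are those of the source names in the labels. The text names every member and gives each value for the 3 with the smallest adjusted p in each comparison and for the brightest of each role, and others chosen after their values were seen. Other pathway genes are those past the threshold, or else the 2 with the smallest adjusted p, and Cdca3 and Mybl2, also chosen after their values were seen. The members and lists were chosen with earlier results of these data known. Alternatives covered scaling, background, filters, probes, the error model, the samples fitted, a replicate block and leaving out each animal, and the files gave no mean foreground signal, so the normexp alternative (offset 50) used the median signal.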

Additional observations from a re-analysis of the deposited data

Results flagged for a closer look

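Of 93 groups of 4 animals (31 genes in 3 groups), 1 had an animal whose gap to the nearest of the others, divided by the range of the group, was above Dixon's 95% critical value, which chance passes in about 1 in 20 groups. It was Prc1 in young rats, where replicate 4 had a level of -4.12 against -2.45 to -2.15 in the other 3.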

How the results depend on the processing

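Each comparison was recomputed under 24 other settings. The smallest adjusted p over the 31 genes and those settings was 0.0614 with age, 0.0337 with restriction and 0.0265 in restricted against young rats (limma). With normexp background and quantile scaling, 1 gene, Cdca8, was lower with restriction (-0.36, adjusted p = 0.0337), and with only the 2 groups compared 2 genes were lower in restricted than in young rats. Leaving out 1 animal at a time gave 0 to 2 genes lower in that comparison, and medians of -0.15 to 0.22, -0.66 to -0.19 and -0.62 to -0.31 in the 3 comparisons. The 2 genes came without old freely fed replicate 1, which is neither a restricted nor a young rat. With normexp background the median was 0.04 with age and -0.31 with restriction. The number of genes with an SD over 0.6 in each freely fed group was 7 in place of 13 with normexp background, alone or with quantile scaling, and the cause was not tested. The counts of spread and order were added after the data were seen. Second probes, present for E2f1, Mcm2, Mcm3, Mcm4, Ccna2 and Prc1, gave 0 calls, and that of Mcm2 had the opposite sign in each comparison (-0.25, 0.11 and -0.14 against 0.13, -0.02 and 0.11).

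Replicate numbers pair animals in the labels by number alone. The correlation of deviations of animals with the same number was -0.19 to 0.10. With the replicate block 0 genes were called in each comparison, the medians were 0.08, -0.47 and -0.39, and the smallest adjusted p were 0.188, 0.0936 and 0.0668 (limma), while Cks1b no longer passed (adjusted p = 0.064).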

Other observations

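Over all features, 55 (0.269%) had both orders of animals, an SD over 0.6 in each freely fed group and all 4 restricted rats below the 2 highest of each freely fed group. They included 13 of the 31 members (7 of the 31 met the SD limit with normexp background), 13 of the 69 other pathway genes and 0 of the listed cell type markers. Of the 29 others, 11 had a gene symbol: Cenpt, Knstrn, Kif20b, Cep55, Cenpu, Iqgap3, Pclaf, Knl1, Spag5, Mis18a and Kifc1. Most of these 11 are known from kinetochores, spindles, cytokinesis or replication, as background. The features without a symbol were not named, and members left unmatched may be among them. Cenpt, of the inner kinetochore, had SDs of 1.37 in young, 1.61 in old freely fed and 0.14 in restricted rats, and Pclaf, which binds the clamp Pcna, 0.65, 1.03 and 0.26. The features were picked by the pattern itself, so their number is a description.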
